A study of Mus musculus with 3 samples.

Results

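The genes described here encode molecular chaperones and folding enzymes, measured in retinas of wild-type mice aged 10 days. They were chosen from the array's gene symbols alone: heat shock proteins of the HSP90, HSP70, HSP60, HSP10, HSP110 and small families, J-domain proteins (Dnaj), the cytosolic chaperonin (Tcp1 and Cct genes), prefoldins, BAG proteins, the cochaperones Stip1 and Ahsa, calnexin, calreticulin, protein disulfide isomerases, cyclophilins and FKBP immunophilins. Hspg2, a matrix proteoglycan whose symbol only looks alike, was left out. The rule found 123 probe sets of 89 genes, among 10833 probe sets with a single symbol and 8251 named genes. A probe set is a group of short oligonucleotide probes on the array that together give 1 signal for a transcript. The rule uses no measured value, but it was chosen with earlier results of these data known. The genes fall into 11 groups by role.

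The 3 samples were arrays of type U74Av2, each hybridised with total RNA pooled from the retinas of 3 to 4 animals. All mice were wild type on a background mixed from 129/SvEv and C57BL/6, littermates of Rp1-/- animals, which were not analysed here, and tissue was taken from 1 to 2 pm. In the titles, rp1 appears for pools 2 and 3 and not for pool 1, but every description calls the mice wild type, and the descriptions were followed. There is 1 group, and no comparison between conditions was possible. The pool numbers follow the order of the records and only name the pools. Nothing in the labels says that the pools shared no animal, so the SD measures the spread between these 3 arrays.

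Chaperones bind proteins that are not yet folded, or have lost their fold, and release them in cycles that for HSP70, HSP90 and the chaperonins are driven by ATP. J-domain proteins deliver clients to HSP70 and start its ATP hydrolysis, nucleotide exchange factors such as BAG and HSP110 proteins let the client go, and the ring-shaped CCT complex folds actin, tubulin and propeller proteins such as the transducin beta subunit. In the endoplasmic reticulum (ER), BiP, GRP94, calnexin and the disulfide isomerases fold membrane and secreted proteins. Photoreceptors build their outer segments at this age and make rhodopsin and other membrane proteins through the ER in large amounts.

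Values are the deposited signals, a linear intensity. Where a gene had more than 1 probe set, the one with the highest mean stands for it. As a limit for background, the 90th percentile of 125 probe sets for 94 genes known from other tissues was taken array by array. It stood at 317.0, 382.3 and 317.6 in pools 1, 2 and 3. A gene under it is described as not above background, which does not mean that it is silent. Signals of different probe sets do not measure amounts on a common scale, so no gene is ranked above another by its level. RNA came from whole tissue, so fewer cells of a type and less RNA per cell cannot be told apart.

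Most of the chaperone genes were measurable. Of the 89, 55 exceeded the limit on all 3 arrays (61.8%), beside 41.9% of the 8251 named genes. Another 24 exceeded it on no array, 27.0% beside 43.1% of all named genes, and 10 did so on 1 or 2 arrays. Averaged over the pools, 61 of the 89 passed the mean limit of 339.0, and the counts of spread and direction below are over these 61 only. Above the limit on every array were 8 of 9 CCT chaperonin genes, 7 of 9 ER lumen chaperones, 7 of 11 FKBP genes and all 3 mitochondrial chaperones. The same held for 14 of 27 J-domain genes, 4 of 9 HSP70 and HSP110 genes, 4 of 5 nucleotide exchange and BAG genes, and both measured genes of the HSP90 group. It held for 2 of 4 genes with a small heat shock protein symbol (Hspb2 and Hspb11), 2 of 4 prefoldin genes and 2 of 6 cyclophilin genes.

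**Figure D1:**
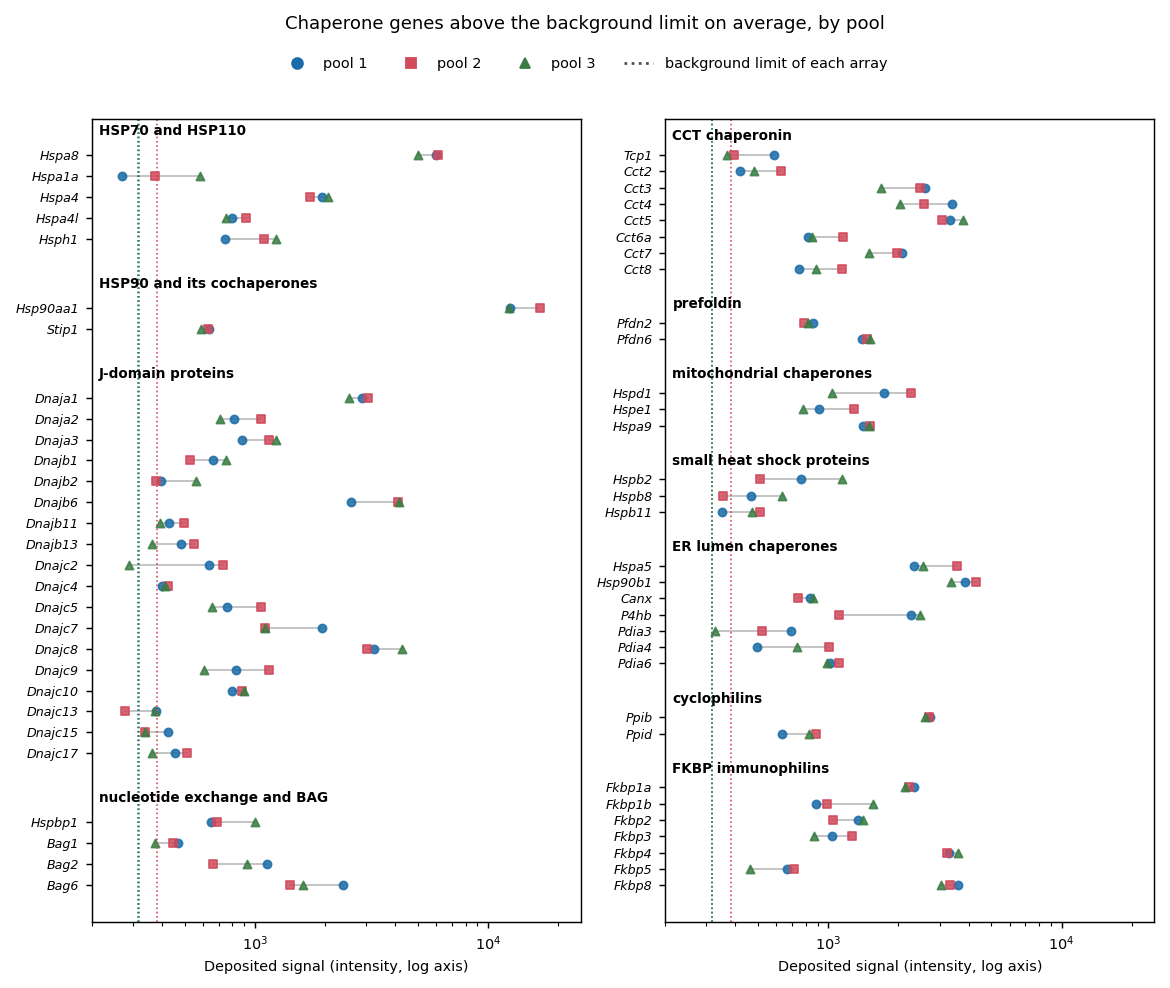
Deposited signal (log axis) of the 61 chaperone genes above the background limit on average, grouped by role, with 1 point for each pool and a grey line from the lowest to the highest. Dotted lines mark the limits of 317.0, 382.3 and 317.6 in pools 1, 2 and 3. Most genes keep their 3 points close together, while Hspd1, P4hb, Hspb2, Pdia3, Pdia4 and Dnajc2 span more than 2-fold, as do the plain signals of Hspa1a, which is under the limit in pools 1 and 2.

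Most ER lumen chaperones were well measured, 7 of the 9 exceeding the limit on every array. Hspa5 encodes BiP, the HSP70 of the ER, and read 2322, 3570.3 and 2542 in pools 1, 2 and 3. Pool 2 was the highest and pools 1 and 3 lay close to each other, a mean of 2812 ± 666.2 (SD, n = 3) and a range of 1.54-fold. Hsp90b1, which encodes GRP94, the HSP90 of the ER, read 3863, 4318 and 3358 in pools 1, 2 and 3. Its pools again peaked in pool 2 but stayed within 1.29-fold. Canx, the lectin chaperone calnexin, read 833.7, 743.8 and 860.4 in pools 1, 2 and 3, a mean of 812.6 ± 61.1 (SD, n = 3). Calr, its soluble partner calreticulin, was not above background in any pool on its single probe set, with 53.9, 71.2 and 68.1 in pools 1, 2 and 3.

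Several of the disulfide isomerase genes varied more. P4hb, the founding protein disulfide isomerase and also a subunit of collagen prolyl hydroxylase, read 2268, 1113 and 2471 in pools 1, 2 and 3. Pool 2 stood apart from the other two, and the range was 2.22-fold. This value came from a probe set with the _r_at suffix, which marks a set built under relaxed rules, and the plain P4hb set was not above background in any pool, at 114.8, 186.9 and 84.3. Pdia3, the isomerase that works with calnexin and calreticulin on glycoproteins, read 689.1, 518.4 and 328.1 in pools 1, 2 and 3, highest in pool 1 and lowest in pool 3, with a range of 2.1-fold. Pdia4 read 496.8, 1007 and 732.3 in pools 1, 2 and 3, lowest in pool 1 and highest in pool 2, with a range of 2.03-fold that dropped below 2-fold when the arrays were scaled to a common median. Pdia6 read 1016, 1115 and 989.7 in pools 1, 2 and 3, a mean of 1040.3 ± 65.8 (SD, n = 3). Its second set above background on average, at 685.6, 829.4 and 483.8, had a wider spread but ranked the pools alike. Pdia5 was not above background in any pool, at 84.3, 235.2 and 144.1. The isomerases thus differed in which pool was highest: pool 1 for Pdia3, pool 2 for Pdia4 and Pdia6, and pool 3 for P4hb.

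Genes of ER folding are classically induced through the ER stress response element, a promoter motif to which ATF6 binds together with NF-Y. The promoter windows of 77 of the 89 genes, from 250 bases before the transcription start to 50 after it, were taken from RefSeq (build GRCm38.p6) and searched on both strands. The motif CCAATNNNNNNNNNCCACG was found in 6 of the 77 genes, Hspa5, Hsp90b1, Canx, Calr, Pdia6 and Dnajc3, beside 0.137% of the 27025 genes of the table. Each of the 6 encodes a protein of the ER. Other ER genes had a window without a match, among them P4hb, Pdia3, Pdia4, Pdia5, Dnajb9, Dnajb11, Dnajc1 and Dnajc10. A match describes the letters and shows no binding. The stretches are shown because these 6 genes share an exact match. Variants of the motif were not searched, so the genes without a match may hold inexact copies. Each is written 5′ to 3′ on the gene's strand with the motif in capitals. Hsp90b1 holds it on both strands, and the Calr match and the Hsp90b1 match nearer the start read as the reverse complement. The matches do not overlap one another.
Hspa5, chr2:34772005-34772063, plus strand: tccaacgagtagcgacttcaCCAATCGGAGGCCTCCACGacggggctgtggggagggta
Hsp90b1, chr10:86705618-86705676, minus strand: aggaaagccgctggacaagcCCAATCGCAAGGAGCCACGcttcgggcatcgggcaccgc
Hsp90b1, chr10:86705513-86705571, minus strand: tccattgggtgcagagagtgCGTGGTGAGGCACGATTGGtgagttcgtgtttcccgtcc
Canx, chr11:50325780-50325838, minus strand: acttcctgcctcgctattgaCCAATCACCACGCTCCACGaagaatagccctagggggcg
Calr, chr8:84847055-84847113, minus strand: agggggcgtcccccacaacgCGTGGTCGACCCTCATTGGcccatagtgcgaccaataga
Pdia6, chr12:17266471-17266529, plus strand: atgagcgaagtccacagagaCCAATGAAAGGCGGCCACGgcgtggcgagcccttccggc
Dnajc3, chr14:118937807-118937865, plus strand: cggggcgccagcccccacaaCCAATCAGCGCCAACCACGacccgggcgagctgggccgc

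The pool orders of the genes with this motif are given as a description, and the part of the motif in them was not tested. Hspa5, Hsp90b1 and Pdia6 were highest in pool 2 and Canx was highest in pool 3 (in pool 1 when the arrays were scaled to a common median), while Calr and Dnajc3 did not pass the limit on average. Hspa5 is the best studied target of the element, and its whole upstream window is shown for that reason. The exact match begins 65 bases before the start, and inexact copies are not marked.
Hspa5, chr2:34771840-34772089, plus strand: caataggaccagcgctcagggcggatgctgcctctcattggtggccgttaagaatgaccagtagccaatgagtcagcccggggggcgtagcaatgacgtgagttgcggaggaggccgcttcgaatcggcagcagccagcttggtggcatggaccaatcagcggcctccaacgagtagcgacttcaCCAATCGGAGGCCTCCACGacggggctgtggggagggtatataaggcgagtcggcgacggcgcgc

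Both genes of the mitochondrial chaperonin had the order with pool 3 lowest and pool 2 highest. This was the commonest order among the 61 genes, held by 17 (27.9%), beside 18.7% of the 4105 named genes. Hspd1, which encodes HSP60, the ring of the mitochondrial chaperonin, read 1732, 2263 and 1040.5 in pools 1, 2 and 3. Pool 2 was the highest and pool 3 the lowest, a range of 2.17-fold. Hspe1, which encodes HSP10, the lid of that ring, read 915.5, 1287 and 780.5 in pools 1, 2 and 3, with the same order and a range of 1.65-fold. The log2 difference of pool 3 minus pool 2 was -1.12 for Hspd1 and -0.72 for Hspe1, against a median of -0.0056 over the 4105 named genes above the limit on average. Hspa9, mortalin, the HSP70 that pulls proteins into the mitochondrial matrix, read 1415, 1510.4 and 1499.7 in pools 1, 2 and 3 and was among the closest between pools, with a range of 1.07-fold. A second Hspd1 set, with the _r_at suffix, was not above background in any pool, at 232.2, 102.0 and 312.4.

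Hspd1 and Hspe1 lie head to head and their RefSeq promoter windows overlap. Both were found to hold the heat shock element, the site of the HSF transcription factors, searched as GAANNTTCNNGAA on both strands. It occurred in 4 of the 77 chaperone genes with a window, the others being Dnajb6 and Hsph1, beside 0.662% of the 27025 genes. Hspd1 and Hspe1 count as 2 of the 4 through the same bases. The part of the element in the order of the pools, for these genes or the others, was not tested. The windows of Hspa1a, Hspa1b, Dnajb1 and Hspb1 held no match to this exact pattern, and variants of it were not searched. In the Hspd1 and Hspe1 windows, 2 overlapping matches cover the same bases of chromosome 1, read from opposite strands, and are joined in the capitals. The Hsph1 match lies after the transcription start and is not printed.
Hspe1, chr1:55088039-55088096, plus strand: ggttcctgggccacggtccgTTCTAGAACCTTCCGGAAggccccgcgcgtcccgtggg
Hspd1, chr1:55088039-55088096, minus strand: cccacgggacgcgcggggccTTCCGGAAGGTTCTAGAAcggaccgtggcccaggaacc
Dnajb6, chr5:29735832-29735884, plus strand: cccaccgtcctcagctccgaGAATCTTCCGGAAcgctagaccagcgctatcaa

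Values of the other genes with the heat shock element follow. Hsph1, an HSP110 that acts as a nucleotide exchange factor for HSP70, read 745.2, 1089.9 and 1238 in pools 1, 2 and 3, lowest in pool 1 and higher in the other pools. Dnajb6, a J-domain protein that keeps proteins from aggregating, was likewise lowest in pool 1 on its brighter set. For the genes Hspa8, Hsp90aa1, Hspa9, Hspb2, Cct4, Dnajc2, Dnajc5, Dnajc11, Ppid, Ppie, Ppic and Pfdn1 no promoter window was at hand.

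The cytosolic chaperones Hspa8, Hsp90aa1 and Stip1 exceeded the limit in every pool. Hspa8, HSC70, the HSP70 that cells make without stress and that also uncoats clathrin vesicles, read 5984, 6069 and 4979 in pools 1, 2 and 3. All pools lay within 1.22-fold, at a mean of 5677 ± 606.5 (SD, n = 3), a log2 range of 0.29 that was 0.47 after quantile normalization. Hsp90aa1, the stress-responsive cytosolic HSP90, read 12361, 16662 and 12334 in pools 1, 2 and 3. Pools 1 and 3 were almost level and pool 2 was higher, a range of 1.35-fold. This log2 range of 0.43 was 0.87 after quantile normalization, so its size depends on the scaling. A second Hsp90aa1 set with the _i_at suffix was not above background, at 83.8, 135.6 and 149.3. Stip1, HOP, which passes clients from HSP70 to HSP90, read 638.0, 631.8 and 587.1 in pools 1, 2 and 3 and stayed within 1.09-fold.

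The HSP70 genes Hspa1a, Hspa1b and Hspa1l were near or under the limit. Hspa1a read 270.7, 375.1 and 582.1 in pools 1, 2 and 3 and exceeded background only in pool 3, at least 1.84-fold above the lowest pool, while its plain ratio of 2.15-fold rests on a signal not above background. Hspa1b, at 196.3, 211.7 and 306.3 in pools 1, 2 and 3, and Hspa1l, at 190.2, 298.5 and 285.4, were above background in no pool. Hspa1a and Hspa1b are near-identical copies, so each of their sets may read both transcripts. Hspa2, best known from germ cells, was also under the limit throughout, at 122.6, 43.3 and 113.1. Hspa14, which works at the ribosome, read 365.2, 242.9 and 371.2 in pools 1, 2 and 3 and exceeded background in pools 1 and 3.

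The HSP110 relatives were measured in every pool. Hspa4 read 1936, 1721 and 2059 in pools 1, 2 and 3, a range of 1.2-fold, on the brightest of its 5 sets, and the other 4 were not above background on average. Hspa4l read 796.4, 915.3 and 754.0 in pools 1, 2 and 3, a range of 1.21-fold. These genes were steadier than Hsph1, whose range was 1.66-fold.

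The J-domain genes form the largest group, with 27 genes, of which 18 passed the limit on average. Dnaja1, Dnaja2 and Dnajb1 are main partners of cytosolic HSP70, and Dnaja3 is its counterpart in mitochondria. Dnaja1 read 2891, 3047 and 2542 in pools 1, 2 and 3, with pool 3 the lowest. Dnaja2 read 813.0, 1061 and 710.9 in pools 1, 2 and 3, and Dnaja3 read 878.6, 1149.8 and 1229 in pools 1, 2 and 3, so pool 3 was the lowest for the first and the highest for the second. Dnajb1, HSP40, which is induced by heat together with HSP70, stood at 645.7 ± 113.9 (SD, n = 3) and Dnajb2, a neuronal form that binds ubiquitinated clients, at 445.3 ± 101.5 (SD, n = 3), the latter just under the limit in pool 2. Dnajc5, the cysteine string protein of synaptic vesicles, which protects nerve terminals, stood at 825.3 ± 210.3 (SD, n = 3) and was highest in pool 2.

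The ribosome-associated J-domain gene Dnajc2 had the widest range of all 61. It read 636.3, 726.7 and 289.9 in pools 1, 2 and 3, with pools 1 and 2 near each other and pool 3 not above background, so that the fall from pool 2 to pool 3 was at least 2.29-fold. Its second set, with the _f_at suffix that marks a set able to match related transcripts, read 510.6, 491.1 and 382.4 in pools 1, 2 and 3. That set also had pool 3 lowest, but it exceeded the limit there and its spread was smaller. Dnajc9, which chaperones histones, came next among the J-domain genes with 832.2, 1145 and 606.4 in pools 1, 2 and 3, again lowest in pool 3, a range of 1.89-fold. Dnajc7, which holds HSP70 and HSP90 at once, read 1939, 1106 and 1110.2 in pools 1, 2 and 3, with pool 1 apart from the other two.

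Among the J-domain proteins of the ER, Dnajb11 stood at 437.8 ± 53.6 (SD, n = 3) and Dnajc10, which reduces disulfides ahead of degradation, at 862.3 ± 53 (SD, n = 3), both above the limit on all arrays. Dnajc3 exceeded it in pool 2 alone, at 280.4, 409.2 and 207.0 in pools 1, 2 and 3. Dnajb9 and Dnajc1 were above it on no array. Dnajc4 had the smallest range of the 61 at 1.06-fold, with 400.2, 424.0 and 413.4 in pools 1, 2 and 3. Also above the limit on all arrays were Dnajc8 at 3514 ± 680.1 (SD, n = 3), Dnajc17 at 443.0 ± 73.9 (SD, n = 3) and Dnajb13, better known from sperm flagella, at 465.9 ± 94.8 (SD, n = 3). A second Dnajb13 set was above background in no pool, at 19.4, 50.9 and 128.9. Dnajc13, an endosomal protein, and Dnajc15, a regulator of mitochondrial import, passed on 2 arrays each, at 378.8, 277.8 and 373.8 and 422.8, 336.7 and 338.4. Dnajb4, at 288.7, 229.3 and 320.3, passed only in pool 3. Dnajb3 and Dnajb8, known from testis, and Dnajb5, Dnajc11 and Dnajc21 were above background in no pool.

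Of the factors that release clients from HSP70, Hspbp1 read 651.5, 690.8 and 997.6 in pools 1, 2 and 3, highest in pool 3, a range of 1.53-fold. Its only set has the _f_at suffix. Bag1 read 466.5, 446.6 and 374.4 in pools 1, 2 and 3, a range of 1.25-fold. Bag2, an inhibitor of the ubiquitin ligase CHIP, read 1128, 663.3 and 922.1 in pools 1, 2 and 3, highest in pool 1. Bag6, which guides tail-anchored membrane proteins to the ER and faulty ones to the proteasome, read 2396, 1419 and 1602 in pools 1, 2 and 3 and was also highest in pool 1. Bag3, which pairs with small heat shock proteins in selective autophagy, was above background in no pool, at 198.9, 154.6 and 180.7.

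The CCT chaperonin is a ring of 8 different subunits. The representative probe sets of all 8, Tcp1 and Cct2 to Cct8 with Cct6a, exceeded the limit in every pool. Cct6b, a second form of subunit 6 known from testis, did so in none, at 171.8, 177.5 and 221.8. The Cct6a value came from a set with the _f_at suffix, and its other set was above background in no pool, at 26, 185.4 and 18.6. A second Tcp1 set was also above background in none, at 18.6, 26 and 17.6. A second Cct5 set exceeded the limit in pool 1 only, at 343.2, 282.3 and 267.6. Ranges ran from 1.23-fold for Cct5 to 1.67-fold for Cct4, and no subunit passed 2-fold. The subunits did not share 1 order of pools. Tcp1 read 585.0, 396.3 and 368.7 in pools 1, 2 and 3, Cct4 read 3398, 2578 and 2038 in pools 1, 2 and 3 and Cct7 read 2075, 1965 and 1490.5 in pools 1, 2 and 3. All 3 were highest in pool 1 and lowest in pool 3, as was the representative set of Cct3, at 2602, 2462 and 1679. Cct2 read 418.4, 629.5 and 482.6 in pools 1, 2 and 3, Cct6a read 822.2, 1158 and 855.3 in pools 1, 2 and 3 and Cct8 read 752.1, 1148 and 883.3 in pools 1, 2 and 3. This second trio had its minimum in pool 1 and its maximum in pool 2. Cct5 read 3334, 3062 and 3763 in pools 1, 2 and 3 and was the only subunit highest in pool 3. The median log2 difference over the 8 subunits was -0.079 for pool 2 minus pool 1, -0.21 for pool 3 minus pool 1 and -0.38 for pool 3 minus pool 2.

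Prefoldin hands nascent actin and tubulin to CCT. Pfdn2 read 856.7, 789.8 and 820.1 in pools 1, 2 and 3 and Pfdn6 read 1394, 1469.9 and 1506 in pools 1, 2 and 3, each with a range of 1.08-fold, among the smallest of the 61. Pfdn5 was under the limit in every pool, at 296.0, 272.0 and 249.7, as was Pfdn1, at 30.3, 14.5 and 13.8. Vbp1, the prefoldin subunit whose symbol the rule does not cover, read 3595, 3909 and 2763 in pools 1, 2 and 3.

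Small heat shock proteins hold unfolding proteins without using ATP. Hspb2, best known from heart and muscle, read 761.9, 511.2 and 1146 in pools 1, 2 and 3. Pool 2 was the lowest and pool 3 the highest, a range of 2.24-fold, but this is a set with the _g_at suffix and the plain Hspb2 set was not above background, at 39.9, 36.4 and 92.1. Hspb8, which works with Bag3, read 467.9, 353.7 and 632.0 in pools 1, 2 and 3, in the same order. It was not above the limit in pool 2, so that pool 3 was at least 1.65-fold higher. A second Hspb8 set was above background in no pool, at 19.8, 34.4 and 24.2. Hspb1, HSP25, was above background in no pool, at 128.3, 54 and 134.2. Hspb11 was placed in this group by its symbol and is known also as IFT25, part of the intraflagellar transport that serves cilia. Its values were 349.0, 509.5 and 469.8 in pools 1, 2 and 3, lowest in pool 1.

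Cyclophilins and FKBP proteins are prolyl isomerases, which speed the turning of proline bonds during folding. Ppib, cyclophilin B of the ER, read 2743, 2705 and 2588 in pools 1, 2 and 3 and was among the closest between pools, within 1.06-fold. Ppid, a cyclophilin of HSP90 complexes, read 631.8, 882.5 and 823.3 in pools 1, 2 and 3, lowest in pool 1. Ppif, the cyclophilin of mitochondria, passed the limit in pool 1 alone, at 384.4, 238.9 and 226.0, and Ppic, Ppie and Ppig passed it in none.

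Of the FKBP genes, Fkbp1a, FKBP12, read 2320.0, 2209 and 2126 in pools 1, 2 and 3 and stayed within 1.09-fold. Its close relative Fkbp1b read 887.7, 989.3 and 1559 in pools 1, 2 and 3, higher in pool 3 than in both other pools, a range of 1.76-fold. Fkbp2, which sits in the ER, read 1344, 1049 and 1409 in pools 1, 2 and 3, lowest in pool 2. Fkbp8, a membrane-anchored FKBP of mitochondria, stood at 3326 ± 274.6 (SD, n = 3), and Fkbp3, of the nucleus, at 1057 ± 200.1 (SD, n = 3). The HSP90 partners Fkbp4 and Fkbp5 stood at 3380.0 ± 190.3 (SD, n = 3) and 615.0 ± 134.4 (SD, n = 3). Fkbp5, a gene induced by glucocorticoids, was lowest in pool 3, while the pools of Fkbp4 lay within 1.11-fold. The ER members Fkbp7, Fkbp9 and Fkbp11 and the remaining Fkbpl were above background in no pool.

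The spread between pools was close to that of other genes on the array. The median SD of log2 signal was 0.27 over the 61 chaperone genes and 0.26 over the 4105 named genes above the limit on average. A plain ratio of the highest to the lowest pool over 2-fold was found for 7 of the 61 (11.5%), Dnajc2, Hspb2, P4hb, Hspd1, Hspa1a, Pdia3 and Pdia4, beside 11.9% of the 4105, so this share is near the background and says nothing particular about chaperones. For Hspa1a, which passed the mean limit only through pool 3, the signal supports no more than at least 1.84-fold. Leaving out pool 1 gave 4 such genes, leaving out pool 2 gave 3 and leaving out pool 3 gave 2, and the count was 3 (Hspa1a, Pdia3 and Pdia4) when all sets of a gene were averaged. Just inside the threshold lay Pdia4 at 2.03-fold, and just outside it lay Dnajc9 at 1.89-fold and Hspb8 at 1.79-fold. Across the 61 genes, Pearson's r of log2 signal was 0.94 for the first pool with the second, 0.93 for the first with the third and 0.91 for the second with the third. These are descriptions across genes that share an array and are not independent replicates.

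**Figure D2:**
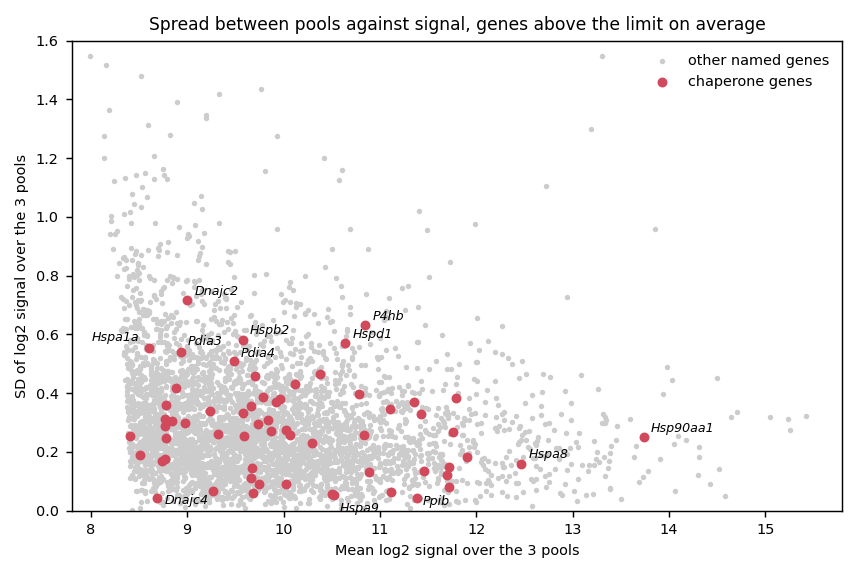
SD of log2 signal over the 3 pools (vertical axis) against the mean log2 signal (horizontal axis) for the named genes above the limit on average, with the 61 chaperone genes in red and the other genes in grey; 15 other genes lie outside the axes. The chaperone genes lie within the grey cloud, with Dnajc2, P4hb and Hspb2 at the top of the red points and Dnajc4, Ppib and Hspa9 at the bottom.

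As deposited, pool 2 was the highest for more chaperone genes than either other pool, but with the arrays scaled to a common median pools 1 and 2 tied. In both cases the share highest in pool 2 was larger than that over all named genes above the limit on average. As deposited, pool 2 was the highest for 26 of the 61 (42.6%), beside 33.2% of the 4105 genes, pool 3 for 19, beside 32.5%, and pool 1 for 16, beside 34.3%. Pool 3 was the lowest for 27 (44.3%), beside 36.0%, pool 1 for 17, beside 28.3%, and pool 2 for 17, beside 35.7%. The order with pool 3 lowest and pool 2 highest was the commonest, held by 17 (27.9%), beside 18.7%, among them Hspa8, Hsp90aa1, Dnaja1, Hspd1, Hspe1 and Hsp90b1. The median log2 difference of pool 2 minus pool 1 was 0.083 for the chaperone genes and -0.029 for the 4105, and that of pool 3 minus pool 2 was -0.10 and -0.0056. For pool 3 minus pool 1 it was -0.039 and -0.030. No test between pools is possible with 1 array each. The array medians differ by 0.12 between pools 2 and 1, and with the arrays scaled to a common median the chaperone value for that pair turned to -0.035 and that of all genes to -0.15. With that scaling, 21 of the 61 were highest in pool 1 (34.4%, beside 43.0% of the 4105), 21 in pool 2 (34.4%, beside 25.8%) and 19 in pool 3 (31.1%, beside 31.2%). Hspa8, Dnaja1, Dnajc4, Fkbp5 and Hspa9 were no longer highest in pool 2. The order with pool 3 lowest and pool 2 highest was then held by 14 chaperone genes (23.0%), beside 15.3%.

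**Figure D3:**
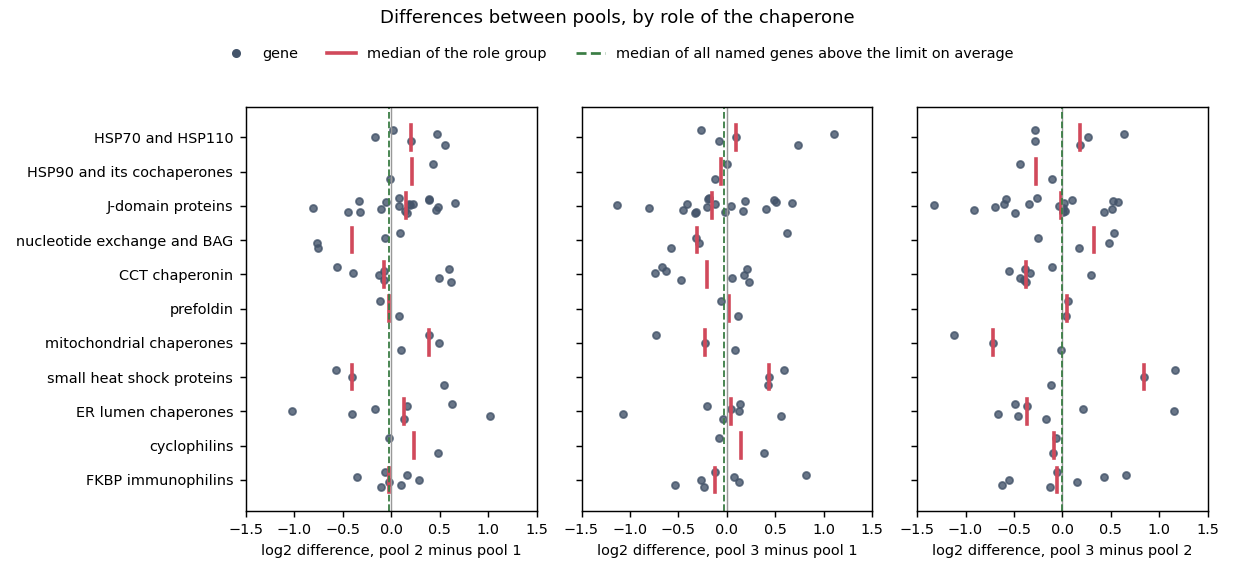
Log2 difference between pairs of pools for each chaperone gene above the limit on average (points), by role group, with the median of the group (red) and of the 4105 named genes (green, dashed). For pool 3 minus pool 2, the mitochondrial median of -0.72 is the value of Hspe1 among 3 genes, and the small heat shock protein median of 0.84 is that of Hspb8, whose signal in pool 2 was not above background, while Hspb11 lies at -0.12.

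Different probe sets of a chaperone gene did not always rank the pools alike. Of the 89 genes, 24 had more than 1 set, and in 9 of these more than 1 set passed the limit on average. The sets ranked the pools alike for Fkbp4 and Pdia6 and differently for the other 7, Bag2, Bag6, Canx, Cct3, Dnajb6, Dnajc2 and Dnajc8. The share over all named genes with several sets was not counted, so this says nothing particular about chaperones. The brighter Dnajb6 set read 2594, 4102 and 4134 in pools 1, 2 and 3 and the other 582.3, 533.8 and 452.4, so that pool 3 was the highest on one and the lowest on the other. For Bag6, 3 sets were highest in pool 1, the representative 2396, 1419 and 1602, the plain set 1752, 1219 and 1154 and the _r_at set 691.3, 492.1 and 553.7. The remaining Bag6 set was highest in pool 2 and under the limit in pool 3, at 349.0, 535.4 and 181.0. The other Cct3 sets, at 1123, 1325 and 1118 and 557.6, 746.8 and 459.2, were highest in pool 2, whereas the representative was highest in pool 1, and all 3 had pool 3 lowest. For Canx the second set, at 292.7, 387.7 and 345.5, exceeded its limit in pools 2 and 3 and reversed the order of pools 2 and 3. For Bag2 the plain set, at 506.5, 555.3 and 491.3, was nearly level. The representative Dnajc8 set read 3239, 3015 and 4289 and the second 1272, 828.0 and 1254, both with pool 2 lowest but with different pools highest.

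**Figure D4:**
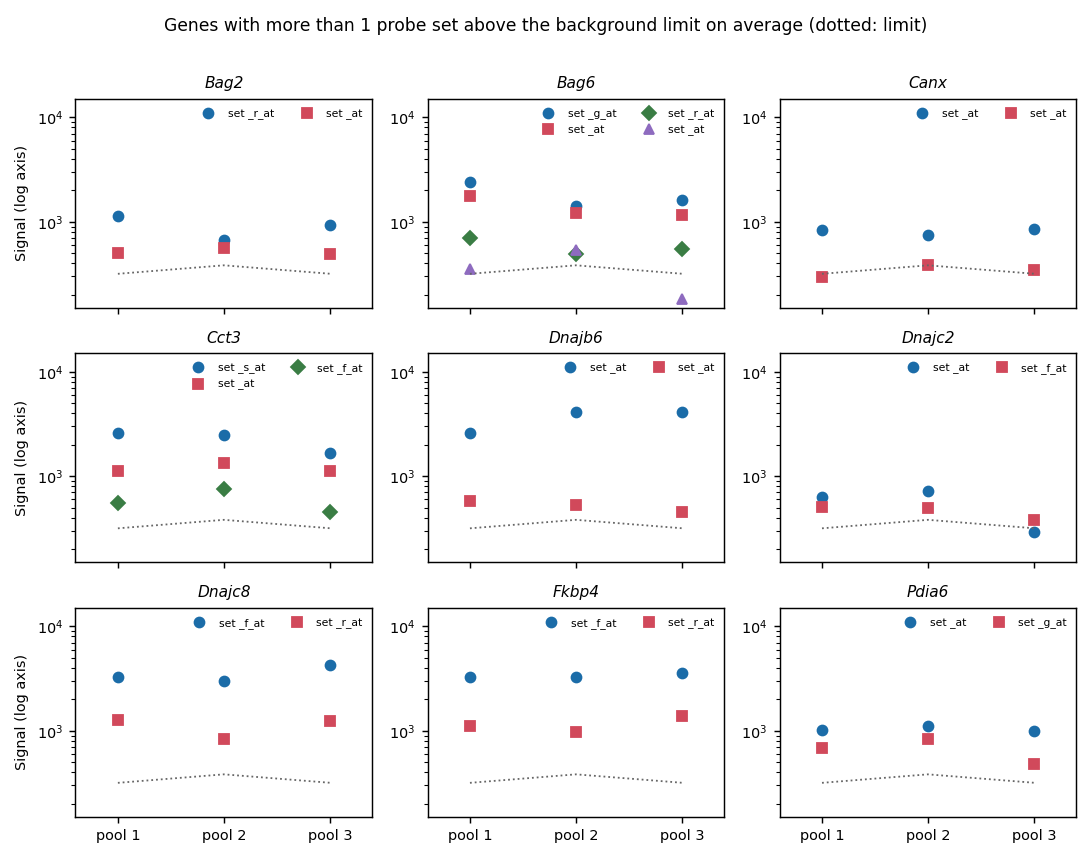
Signal (log axis) in each pool for the 9 genes with more than 1 probe set above the limit on average, with 1 colour for each set, its suffix in the key and the background limit dotted. The sets of Fkbp4 and Pdia6 follow each other, and those of Dnajb6 run in opposite directions.

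Genes of the lens, a tissue that a retina dissection can carry along, differed strongly between the pools, and some chaperone genes had the same order. All 11 lens genes measured had their minimum in pool 2 and their maximum in pool 3, and their summed signal was 226816, 36700.4 and 423620 in pools 1, 2 and 3. Of the 61 chaperone genes 11 had this order, beside 18.7% of the 4105 genes, a share near the background. They were Hspb2, P4hb, Hspb8, Dnajb1, Dnajb2, Dnajc8, Fkbp2, Fkbp4, Cct5, Hspa4 and Canx. With a common median 13 had it, beside 20.2%: Canx left, and Hspa9, Hspbp1 and Pfdn6 joined. Cryab, the alpha-B crystallin, itself a small heat shock protein and the genomic neighbour of Hspb2, read 947.6, 310.9 and 2265 in pools 1, 2 and 3. Its plain ratio of 7.29-fold rests on a signal not above background in pool 2, as does the 1.79-fold of Hspb8, while the 2.24-fold of Hspb2 does not. The part of lens RNA in the values of Hspb2, P4hb and Hspb8 was not tested.

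**Figure D5:**
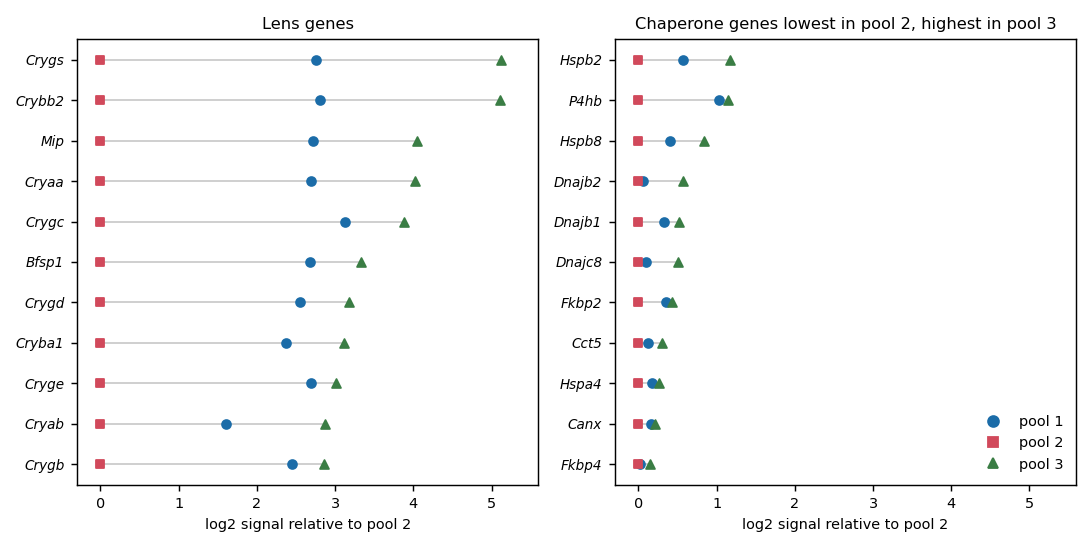
Log2 signal relative to pool 2 for the 11 measured lens genes (left) and for the 11 chaperone genes with pool 2 lowest and pool 3 highest (right), on the same axis, with 1 point for each pool. Plain ratios of the highest to the lowest pool run from 7.26-fold (Crygb) to 34.8-fold (Crygs) for the lens genes and reach 2.24-fold (Hspb2) for the chaperone genes.

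Partners of the chaperones outside the symbol rule were described from 3 lists. Of 15 measured regulators of the heat shock and unfolded protein responses, 6 passed the limit in every pool and 5 in none. Over all 8251 named genes, 41.9% passed it in every pool and 43.1% in none. The count of 6 of 15 is near that background. Hsbp1, which binds HSF1, stood at 2200.0 ± 206.6 (SD, n = 3). Xbp1, a transcription factor of the unfolded protein response, read 654.4, 910.0 and 566.3 in pools 1, 2 and 3, lowest in pool 3 and highest in pool 2. Atf4, which drives the integrated stress response, stood at 6391 ± 1098 (SD, n = 3). Hsf2 and Hsf4 were above background in no pool. Of 29 other folding factors measured, 19 passed the limit in every pool and 5 in none, beside the same 41.9% and 43.1%. Cdc37, which brings kinases to HSP90, stood at 1576 ± 254.8 (SD, n = 3), Stub1, the ubiquitin ligase CHIP, at 1622 ± 383.3 (SD, n = 3) and St13, the HSP70-interacting protein HIP, at 910.8 ± 170.1 (SD, n = 3).

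Photoreceptors also use carriers for lipid-modified proteins. All 4 measured genes of that list exceeded the limit in every pool, beside 41.9% of the 8251 named genes. Unc119, which carries acylated transducin to the outer segment, read 13634, 9638 and 14316 in pools 1, 2 and 3. Pde6d, which carries prenylated proteins, read 2006, 1319 and 2204 in pools 1, 2 and 3, and Arl3, the small GTPase that unloads both carriers, read 1339, 1764 and 1976 in pools 1, 2 and 3. The carriers were lowest in pool 2 and highest in pool 3, whereas Arl3 was lowest in pool 1. Pdc, phosducin, which binds the transducin beta and gamma subunits, read 21088, 23619 and 21313 in pools 1, 2 and 3 and was highest in pool 2.

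Checks of the whole arrays touch these values as follows. Retinal identity was borne out by 9 of 9 measured rod genes and 10 of 10 genes of inner retinal neurons above the limit in every pool. Rod genes had summed signals of 79094.9, 91403.6 and 142654 in pools 1, 2 and 3, and Müller glia genes of 20723.2, 19756.2 and 30540.3. Sums for inner retinal neurons were 23327, 20674.2 and 28950.5, and those for endothelial and mural cells were 2961.5, 2798.5 and 4577.8. All 4 sums were highest in pool 3, but a sum is led by its brightest sets. Gene by gene, 8 of 9 rod, 6 of 8 Müller glia and 6 of 10 inner retinal genes were highest there. So were 9 of the 12 endothelial and mural genes. Of all these 12, whichever pool was highest, 8 were above background in no pool. Isl1, Syt1 and Prkca of the inner retinal list and Glul and Vim of the Müller glia list were lowest in pool 3. Red blood cell genes summed to 22011.1, 4683.6 and 15167.4, lowest in pool 2. Of markers of other cells, 1 of 7 pigment epithelium genes and 2 of 12 microglia and leukocyte genes exceeded the limit on all arrays. The same held for 3 of 12 endothelial and mural genes and 2 of 5 red blood cell genes. The share over all 8251 named genes was 41.9%. For the Actb control the 3′ end read over the 5′ end by a ratio of 1.20, 1.44 and 1.69 in pools 1, 2 and 3, and for Gapdh by 0.95, 0.88 and 0.93. The part of these differences in the order of the pools for chaperone genes was not tested.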

How the data were processed

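The deposited table, made by the authors, holds 1 linear intensity per probe set and array for 12488 probe sets. Which software made it, the sources used here do not say. Trimmed means (2% from each end) were 500.2 or 500.3 on every array, so the intensity was used as deposited. After 66 control sets were set aside, 12422 remained, of which 10833 had 1 symbol, 396 several and 1193 none in GEO's platform annotation. Symbols were updated through Entrez numbers from a RefSeq table (GRCm38.p6). Members, lists and alternatives were chosen with earlier results of these data known.

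Values under 1 were set to 1 before log2. The background limit was the 90th percentile of the tissue-restricted sets, and by construction some of those lie above it. No detection calls were used, and the number of arrays, 3, limits the precision. Being 1 group, the pools were compared with no test. Pool values are given in full for HSP70, HSP90, CCT, mitochondrial and ER lumen genes, for members above the limit on average with a range over 2-fold, for genes whose sets disagree, and for the first 3 of each other group. Genes given by pool beyond these were chosen after their values were seen. The code for the count of ranges and for the search of the 2 motifs was checked on simulated data with planted changes and motifs. The simulated noise was narrower than the median SD of these arrays, so the check says nothing about how many range calls are noise. C-terminal sorting signals of the proteins were planned but not analysed here. Python 3.11.15, numpy 2.4.6, pandas 2.3.3, scipy 1.17.1 and matplotlib 3.10.9 were used.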

Additional observations from a re-analysis of the deposited data

How the results depend on the processing

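No paired analysis was possible because the 3 pools form 1 group. The count of chaperone genes above the limit on all arrays, 55, ran from 43 with the limit at the 95th percentile to 70 with it at the 75th, and from 55 to 60 when 1 pool was left out. The count with a range over 2-fold, 7, was 11 with the limit at the 75th percentile, 21 with no filter on low values and 3 with the log2 mean over all sets of a gene. Leaving out 1 pool, which by construction narrows ranges, gave 2 to 4. The median SD of 0.27 ran from 0.15 without pool 3 and 0.18 without pool 2 to 0.27 without pool 1, and stayed between 0.25 and 0.31 otherwise. The number highest in pool 3, 19, was 23 without pool 1 and 29 without pool 2, when only 2 pools remain, and between 14 and 28 under the other settings. The sign of the median difference changed for pool 2 minus pool 1 with a common median (-0.035) and for pool 3 minus pool 1 with the 75th percentile (0.039), quantile normalization (0.0043) and no filter (0.057). With only the bases before the start, 3 genes held the heat shock element and 6 the ER stress response element. For the 10 genes above the limit on only 1 or 2 arrays, ratios between pools rest partly on signal not above background.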

Other observations

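Of the 396 probe sets with several symbols, which the symbol rule leaves out, 4 carry a chaperone symbol among others, and 1 of the 4 exceeded the limit in every pool. Their mean signals ran from 42.2 to 21848, with a median of 221.1. No gene is named from such a set.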
